A study of Mus musculus with 2 samples.

Results

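Cadherins and protocadherins are transmembrane adhesion proteins that bind a like protein on the neighbouring cell through calcium-dependent extracellular repeats. Classical cadherins (types I and II) tie into the actin skeleton through catenins and sort tissues from each other, with many type II members made by particular groups of neurons. Delta protocadherins act in axon growth and synapse formation. The clustered protocadherins sit in alpha, beta and gamma arrays, in which alpha and gamma genes each join their own variable exon to constant exons shared by the array, so that a neuron displays its own set of proteins. The members described here are all protein-coding genes whose symbol is Cdh followed by a digit or begins with Pcdh. The E- and N-cadherin genes Cdh1 and Cdh2 were left out of the set. This gave 90 of the 21887 protein-coding genes analysed, 33 solitary genes and 57 genes of the clustered region on chromosome 18. Because the clustered genes overlap, their region was counted as 1 locus, which made 34 loci.

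ATAC-seq, whose transposase inserts adapters where DNA is open, was run on tumor cells from the prostate of C57BL/6 mice. The study is about progression to neuroendocrine prostate cancer (NEPC), a form with features of nerve and hormone-secreting cells. W2, the early stage, was 1 library of cells after 2 weeks of tamoxifen, and M6, the late stage, was 1 library after 6 months of tamoxifen. Both groups had thus received tamoxifen. The sources used here do not give the alleles it acts on, the promoter that drives them, the age of the mice or whether animals were pooled. With 1 library per time point no difference has a replicate check, no test was made, and the exact binomial 95% intervals given cover counting error only. In bulk cells, a site open in more cells and a site more open in each cell cannot be told apart. W2 had 5735 peaks and M6 22570 on chromosomes 1 to 19, X and Y. Lists began at 12 tags over the summit in W2 and 10 in M6, so a gene without a peak is one with no peak called, not one with closed chromatin. Of 8 luminal markers 3 had a peak at a gene end in W2 and 4 in M6, and Hoxb13, a homeobox gene of prostate epithelium, had none in either library. The endothelial (Cdh5, Pcdh12), fibroblast (Cdh11) and Schwann cell (Cdh19) markers include members of the set, so they are no separate check on it. By gene-end peaks, endothelial and fibroblast markers had 0 of 7 each in both libraries, and Schwann cell markers 1 of 5 in both. Leukocyte markers had 0 and 1 of 5, and neuronal markers 1 of 6 in W2 and 3 in M6. The share of all genes with such a peak was 18.4% for W2 and 39.7% for M6, and the neuronal counts lie near those shares.

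In W2, peaks were nearly absent from these genes. A locus was taken as the gene body with 10 kb on either side. W2 had 3 peaks at 3 of the 34 loci: Pcdh17, Pcdh1 and the clustered region. M6 had 58 peaks at 19 of the 34 loci, including the same 3. M6 had more peaks than W2 at 19 loci and the same number, 0, at the other 15. No locus had fewer, which was possible only at the 3 loci with a W2 peak. Of the 33 solitary genes 2 had a W2 locus peak (6.06%, interval 0.743 to 20.2%), against 29.6% of all protein-coding genes. In M6 there were 18 (54.5%, 36.4 to 71.9%), against 59.1% of all. The M6 share of the members was thus near that of genes in general, and the W2 share was below it. M6 exceeded W2 at 54.5% of the solitary members and at 44.4% of all genes. When M6 was limited to its 5735 strongest peaks by −log10 q, the number in the W2 list, it had a peak at 8 of the 33 (24.2%, 11.1 to 42.3%), against 27.4% of all genes.

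**Figure D1:**
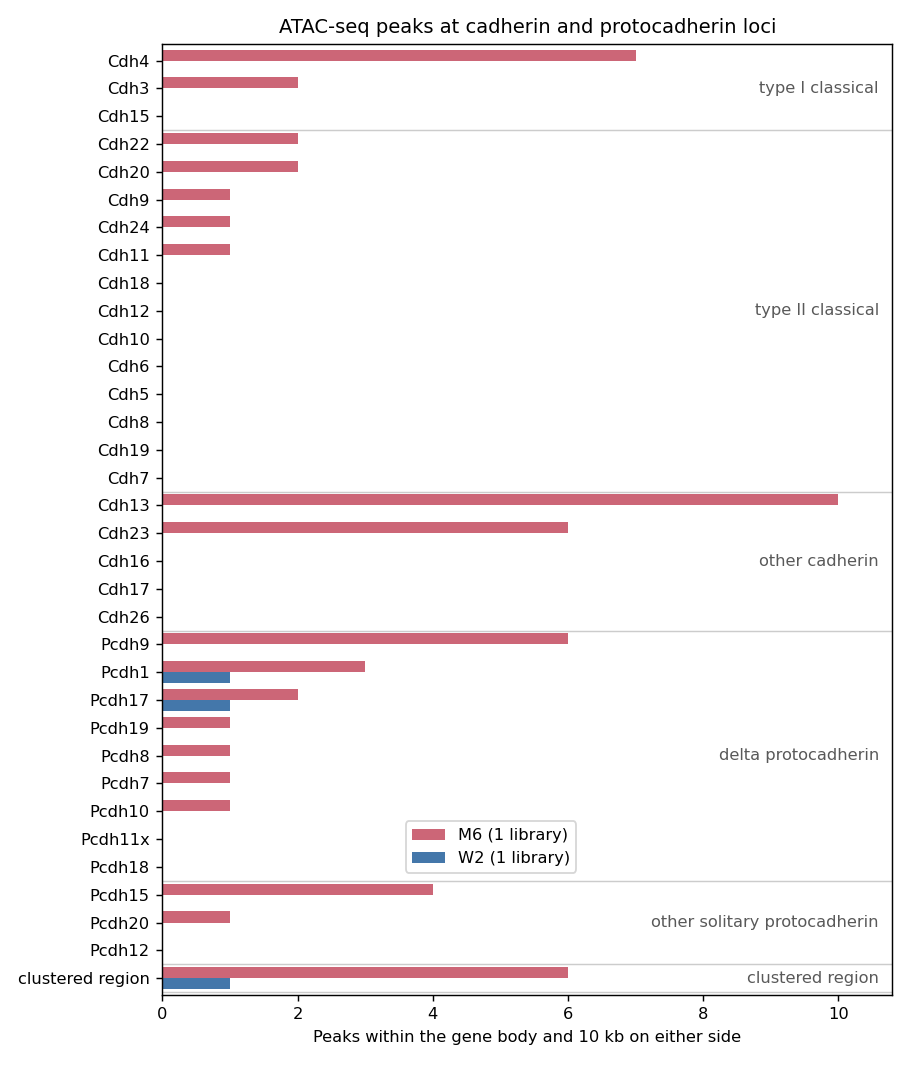
Number of peaks (x axis) at each of the 34 loci (y axis), grouped by class, with red bars for the M6 library and blue bars for the W2 library. W2 bars appear at Pcdh1, Pcdh17 and the clustered region alone, and the longest M6 bars are Cdh13 with 10 peaks and Cdh4 with 7.

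Set against the length of DNA they cover, member loci were sparse in both libraries. The 34 loci span 11382 kb, with 0.0264 W2 and 0.510 M6 peaks per 100 kb. Over all protein-coding loci the densities were 0.390 and 1.35, so member loci had 0.0675 times the density of all loci in W2 and 0.378 times in M6. Loci of long genes were sparse in general, and many members are long. Whether length accounts for the member densities was not tested. Of the 33 solitary members 18 are at least 100 kb long and 6 at least 500 kb. Loci of all genes of at least 100 kb had 0.158 W2 and 0.946 M6 peaks per 100 kb, above the values of the members. Those of at least 500 kb had 0.0461 and 0.577, nearer to the values of the members. The ratio of M6 to W2 peak numbers was 19.3 times at member loci and 12.5 times at loci of at least 500 kb. It was 5.97 times at loci of at least 100 kb and 3.46 times at all protein-coding loci. The first of these ratios rests on 3 W2 peaks.

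Gene-end peaks were few, and most of those at solitary genes belonged to protocadherins. A gene end here is 1 kb on either side of either annotated end, since the gene table gives no strand. Starts farther inside a gene are not covered. Of the 90 members, W2 had such a peak at 2 (2.22%, 0.270 to 7.80%), against 18.4% of all genes, and M6 at 11 (12.2%, 6.26 to 20.8%), against 39.7%. The 11 were Pcdh1, Pcdh8, Pcdh10, Pcdh17, Pcdh19, Pcdh20, Cdh3, Cdh24 and, in the clustered region, Pcdhac2, Pcdhgc3 and Pcdhgc4. Delta protocadherins had 5 of 9 in M6, the other solitary protocadherins 1 of 3, and the cadherins 2 of 21. The clustered genes overlap and are not separate draws, so the intervals over the 90 are too narrow. Over the 33 solitary genes W2 had 1 (3.03%, 0.0767 to 15.8%) and M6 8 (24.2%, 11.1 to 42.3%), an interval that includes the 39.7% of all genes. Of the 11 M6 genes, 2 also had a W2 gene-end peak (18.2%, 2.28 to 51.8%), Pcdh17 and Pcdhgc3. Among all 8688 genes with an M6 gene-end peak this share was 44.8%. With equal numbers of peaks by −log10 q, M6 had 3 members, the solitary Pcdh8, Pcdh17 and Cdh24. This was 9.09% of the 33 (1.92 to 24.3%), an interval that includes the 16.5% of all genes. Ranked by fold the count of M6 members over all 90 was 1, below the 2 of W2. The share of all genes under that ranking is not given here, so whether this order is particular to the members is not known.

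Promoter sequences of protocadherins are printed here because they let the open and the unmarked starts be compared. Sequences are RefSeq promoters of build GRCm38.p6, the assembly that mm10 names, and 22 of the 90 members matched that table, none of them clustered. Each line gives the bases before the annotated start that lie outside the annotated gene, 5′ to 3′ on the strand of the gene. Capitals mark each match to CCAAT on either strand, a promoter box bound by nuclear factor Y. That motif was chosen after the sequences had been seen.
Pcdh17, chr14:84443313-84443562, plus strand: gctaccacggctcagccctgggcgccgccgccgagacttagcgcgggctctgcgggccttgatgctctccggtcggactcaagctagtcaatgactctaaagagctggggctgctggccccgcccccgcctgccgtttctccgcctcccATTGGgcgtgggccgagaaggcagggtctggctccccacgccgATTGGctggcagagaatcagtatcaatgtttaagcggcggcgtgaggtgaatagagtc
Pcdh10, chr3:45378148-45378397, plus strand: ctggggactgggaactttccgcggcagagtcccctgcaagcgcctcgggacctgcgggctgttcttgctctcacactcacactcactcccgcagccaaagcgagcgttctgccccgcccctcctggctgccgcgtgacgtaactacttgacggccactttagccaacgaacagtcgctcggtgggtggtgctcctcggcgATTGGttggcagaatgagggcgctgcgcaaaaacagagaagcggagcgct
Pcdh8, chr14:79771313-79771562, minus strand: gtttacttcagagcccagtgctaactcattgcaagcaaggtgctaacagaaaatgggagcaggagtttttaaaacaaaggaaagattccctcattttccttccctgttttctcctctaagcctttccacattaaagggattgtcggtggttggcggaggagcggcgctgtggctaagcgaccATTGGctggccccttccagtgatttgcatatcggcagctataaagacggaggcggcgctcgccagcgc
Pcdh19, chrX:133689045-133689243, minus strand: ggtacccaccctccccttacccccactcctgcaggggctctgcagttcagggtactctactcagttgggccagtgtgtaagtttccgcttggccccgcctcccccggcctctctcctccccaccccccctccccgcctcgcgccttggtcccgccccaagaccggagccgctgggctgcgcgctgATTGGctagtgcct
Pcdh18, chr3:49757384-49757566, minus strand: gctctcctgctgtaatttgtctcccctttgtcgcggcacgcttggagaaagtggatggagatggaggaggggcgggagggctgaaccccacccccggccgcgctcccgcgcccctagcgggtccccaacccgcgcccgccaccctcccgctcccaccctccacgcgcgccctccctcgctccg
Pcdh20, chr14:88471397-88471646, minus strand: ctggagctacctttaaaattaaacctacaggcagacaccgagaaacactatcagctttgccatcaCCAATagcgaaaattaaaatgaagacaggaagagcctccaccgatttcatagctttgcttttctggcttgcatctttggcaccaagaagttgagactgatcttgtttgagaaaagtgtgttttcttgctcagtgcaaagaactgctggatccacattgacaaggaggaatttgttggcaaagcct

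The first 4 of these starts had an M6 peak and Pcdh17 also a W2 peak, Pcdh18 had none within its locus, and the Pcdh20 peak lay inside the gene, past its start. In Pcdh17 the CCAAT matches began 101 and 58 bases before the start, and the nearest match began 50 bases before it in Pcdh10, 68 in Pcdh8 and 65 in Pcdh19. Pcdh18 also has a match, 32 bases before the start used by RefSeq, in the stretch inside the annotated gene that is not printed. The Pcdh20 match lies farther out, at 185 bases. Over 250 bases before the start, 6 of the 7 delta protocadherins in the table held CCAAT, among them all 5 with an M6 peak at the promoter. Of the 15 other members 8 held it, and 0 of these had an M6 peak at the promoter. Cdh24, the 1 other member with such a peak, held no CCAAT. Among all 17492 genes with a RefSeq promoter, 39.5% held it, as did 44.7% of the 6702 with an M6 peak at a promoter. The other motifs were searched on both strands in the same 250 bases. Of 25 member promoters 2 held CAGCTG (8.0%, against 12.1% of all), 3 CACCTG (12% against 16.9%) and 9 GGGCGG (36% against 42.6%), while TTGGC, which overlaps CCAAT matches of the form ATTGGC, was in 15 (60.0% against 43.0%). TGANTCA and TGTTTAC were in none, against 6.13% and 2.62% of all promoters. A match describes letters and not a bound site.

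CG dinucleotides, which mark the open promoters of many widely used genes, varied from 0 to 30 per 250 bases among the members. All 6 members with an M6 peak over the promoter window had at least 11: Pcdh8 had 11, Pcdh19 16, Pcdh9 18, Pcdh17 21, and Pcdh10 and Cdh24 22 each. None of the 12 member promoters with fewer than 10 CG had an M6 peak, against 10.2% of all promoters of that class. At 10 to 19 CG the members had M6 peaks at 4 of 7 promoters, against 59.6% of all, and at 20 to 29 CG at 3 of 5, against 68.2%. Within these classes the member promoters thus stood near promoters in general, on small counts. CG-rich starts without a peak were those of Cdh22 with 30, Pcdh18 with 23 and Cdh8 with 20. Pcdh9 has 2 RefSeq starts under the same peak, so 6 genes make 7 promoters with a peak.

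**Figure D2:**
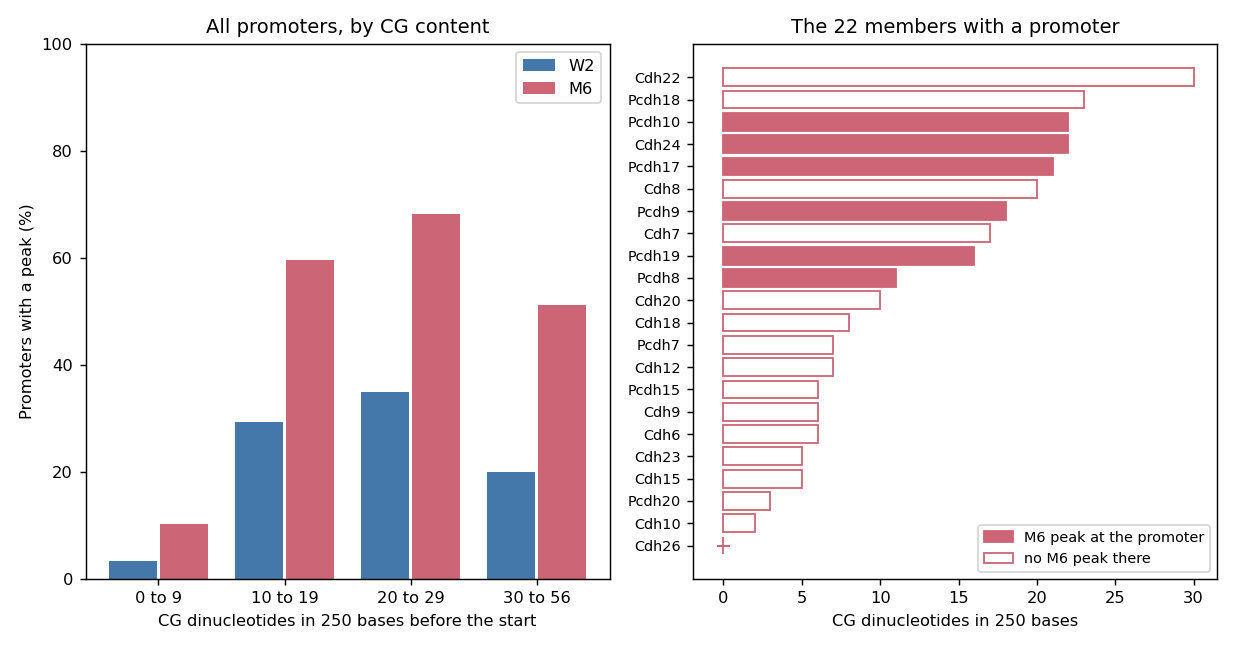
Left, the percentage of all promoters of protein-coding genes with a W2 (blue) or M6 (red) peak, by the number of CG dinucleotides in the 250 bases before the start. Right, that number in the 22 members with a promoter in the table (for Cdh7 and Pcdh9 the richest of several starts), filled where an M6 peak overlaps a promoter; all filled bars lie at 11 or more.

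Among the delta protocadherins, Pcdh17, a regulator of axon and synapse assembly, was the solitary gene with a start open in both libraries. Its W2 peak (chromosome 14, 84443402 to 84443601) had a pileup of 21 tags at the summit, a fold of 5.07 over the local background and a −log10 q of 6.92. The M6 peak over the same start (84443354 to 84443631) had 35 tags, a fold of 4.84 and a −log10 q of 11.6. The pileup was therefore higher in M6 and the fold over background was not, as the local background was 3.34 tags in W2 and 6.44 in M6. A second M6 peak, without W2 counterpart, lay inside Pcdh17, 6.48 kb from its far end (84530888 to 84531248, 25 tags, −log10 q 11.6).

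Pcdh8, an activity-regulated protocadherin of synapses, had the strongest gene-end peak of the set, in M6 alone (chromosome 14, 79771179 to 79771714, 36 tags, fold 5.80, −log10 q 14.5). Its summit lay 42 bases before the annotated start. Pcdh10, which guides forebrain axons, had an M6 peak 34 bases before its start (chromosome 3, 45378191 to 45378481). This peak had 30 tags over the highest local background of any member peak, 8.32 tags, and so a fold of 3.33 and a −log10 q of 5.81. Pcdh19, an X-linked gene known from epilepsy, had an M6 peak 27 bases past its start (chromosome X, 133688910 to 133689260, 22 tags, −log10 q 6.24). None of these 3 genes had a W2 peak within 100 kb. The W2 peak nearest to Pcdh8 was 179 kb away, that nearest to Pcdh19 370 kb and that nearest to Pcdh10 3636 kb.

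Pcdh9, the longest delta protocadherin at 879 kb, had 6 M6 peaks and no W2 peak. The strongest (chromosome 14, 93890610 to 93891072, 32 tags, fold 5.37, −log10 q 12) lay 67 bases before a RefSeq start. As that start is 2.09 kb inside the outermost annotated end, the peak was not counted as a gene-end peak. The other 5 peaks were spread through the gene body, 66.4 to 326 kb from the nearer end, and the strongest of them (93079908 to 93080224) had 24 tags and a −log10 q of 11.0. Pcdh1, a protocadherin of airway and other epithelia, had a W2 peak inside the gene (chromosome 18, 38200150 to 38200349, 19 tags, −log10 q 3.11). The M6 peak there (38199966 to 38200363) had 26 tags and a −log10 q of 9.11, and 2 weaker M6 peaks flanked the gene ends (−log10 q 4.82 and 2.00). Pcdh7 had a single M6 peak inside its body (17 tags, −log10 q 5.88), 65.4 kb from the far end and 350 kb past its RefSeq start. Pcdh18 and Pcdh11x had no peak in either library, and for Pcdh11x, which spans 620 kb of the X chromosome, the nearest M6 peak was 1487 kb away.

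The remaining solitary protocadherins were Pcdh20, Pcdh15 and Pcdh12. Pcdh20, a small gene of 6.65 kb, had an M6 peak 346 bases past its start (chromosome 14, 88470974 to 88471188, 20 tags, −log10 q 6.94). Pcdh15, which forms the lower part of the hair cell tip link of the inner ear, is the longest member at 1554 kb. It had 4 M6 peaks, all inside the body, with −log10 q from 3.97 to 10.4 and 14 to 26 tags. Pcdh12, an endothelial protocadherin, had none in its locus.

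The clustered region holds 57 genes over 912 kb, and its few peaks lay at C-type genes or outside the arrays' genes. C-type genes (Pcdhac1, Pcdhac2, Pcdhgc3, Pcdhgc4 and Pcdhgc5) stand last in the alpha and gamma arrays and are known to be used by most neurons, while the other variable genes are chosen cell by cell. Of the 5 C-type genes 3 had an M6 gene-end peak and 1 a W2 one. Of the other 52 clustered genes, 0 had a gene-end peak in either library, against 39.7% of all genes in M6 and 18.4% in W2. All 22 beta genes lacked a peak within 10 kb in both libraries. Gene counts over whole bodies say less: 33 of the 57 genes contain an M6 peak because all 14 alpha genes run through 1 peak, at Pcdhac2, and 19 gamma genes run through those at the end of their array.

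**Figure D3:**
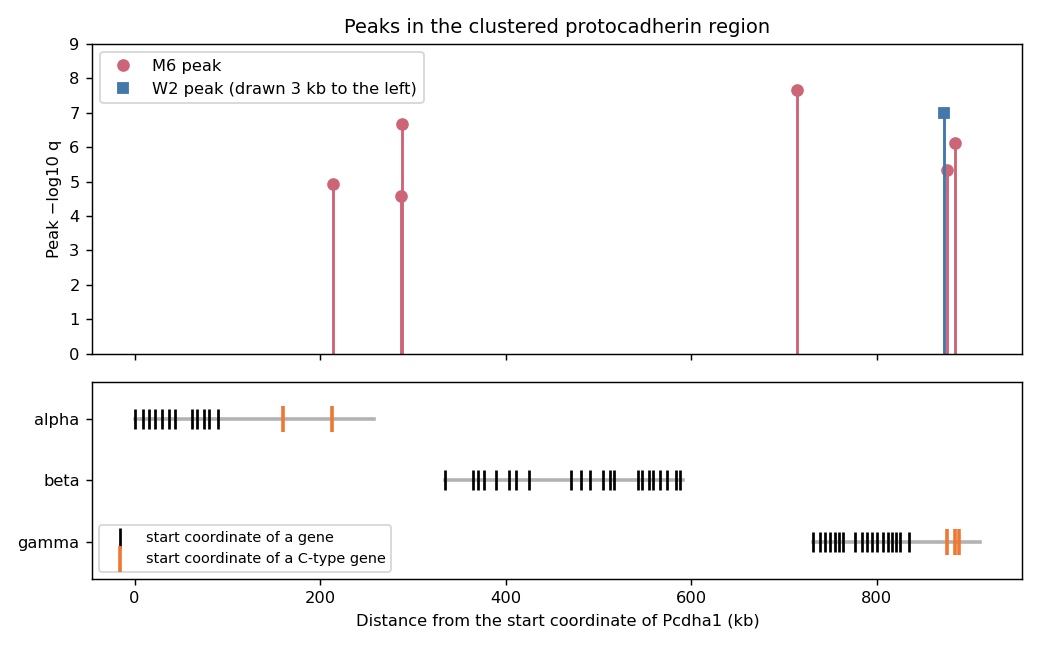
Top, −log10 q (y axis) of each M6 (red) and W2 (blue, drawn 3 kb to the left) peak along the clustered protocadherin region, by distance in kb from the start coordinate of Pcdha1 (x axis). Bottom, start coordinates of the 57 genes, C-type genes in orange; peaks stand over Pcdhac2, Pcdhgc3 and Pcdhgc4, and none over the beta array.

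The site open in both libraries was the start of Pcdhgc3. Its W2 peak (chromosome 18, 37806216 to 37806491) had 23 tags, a fold of 4.8 and a −log10 q of 7.01, and its M6 peak (37806233 to 37806438) had 22 tags, a fold of 3.81 and a −log10 q of 5.33. It was the only one of the 3 shared member sites with a lower pileup and −log10 q in M6 than in W2. The summits lay 99 bases (W2) and 133 bases (M6) from the start coordinate. M6 alone had a peak 147 bases from the start coordinate of Pcdhgc4 (37814805 to 37815073, 24 tags, −log10 q 6.12). A further M6 peak stood 85 bases from that of Pcdhac2 (37143543 to 37143919, 17 tags, −log10 q 4.93). Pcdhac1 and Pcdhgc5 had none at their ends.

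The other 3 M6 peaks of the region lay outside all alpha, beta and gamma genes. A pair of them, 37217275 to 37217526 (16 tags, −log10 q 4.57) and 37217673 to 37218446 (19 tags, −log10 q 6.68), fell in the gap between the alpha and beta arrays. Their summits were 28.5 and 29.4 kb past the last alpha end coordinate and 47.6 and 46.7 kb before the first beta gene. The alpha array is known for an enhancer downstream of its constant exons, and whether this pair coincides with it was not tested, as no enhancer coordinates were used here. The strongest peak of the region (37644117 to 37644423, 20 tags, −log10 q 7.67) was 59 bases from an end of Taf7, a general transcription factor gene between the beta and gamma arrays, and 17.5 kb from the nearest protocadherin. None of the 6 M6 peaks of the region was among the 5735 strongest M6 peaks by −log10 q.

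Cadherins had no W2 peak at any of their 21 loci, where 29.6% of all genes had one. In M6, 9 of the 21 had 32 peaks, against 59.1% of all genes with a locus peak, and most of the 32 lay inside a few long genes. Of the 3 type I genes, Cdh4 (R-cadherin, known from retina and brain) had 7 M6 peaks, all inside the gene and 56.2 kb or more from its ends. The strongest (chromosome 2, 179812329 to 179812550) had 26 tags and a −log10 q of 11.8, and the rest ran from 3.65 to 6.44. Cdh3, the P-cadherin gene of basal epithelia, had a weak M6 peak over its first annotated base (chromosome 8, 106510722 to 106510993, 16 tags, −log10 q 4.23). A second, 4.34 kb past the other end, had 13 tags and a −log10 q of 2.38. Cdh3 neighbours Cdh1, which had 2 W2 and 3 M6 locus peaks. Cdh15, the muscle cadherin, had none.

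Type II cadherins, of median length 153 kb, had the fewest M6 peaks per length of any class. Of 13 genes 5 had an M6 peak, against 59.1% of all genes and 83.2% of genes of at least 100 kb. They held 7 peaks in all, or 0.174 per 100 kb, against 1.35 at all loci. Loci of at least 100 kb had 0.946 per 100 kb and those of at least 500 kb 0.577. Cdh24 had the single gene-end peak among the type II genes (chromosome 14, 54641280 to 54641677, 36 tags, fold 5.47, −log10 q 13.7). Its summit was 174 bases before a RefSeq start of Cdh24 and 623 bases from an end of the neighbouring Acin1, so the peak cannot be assigned to one gene. Cdh22, a brain and pituitary cadherin, had a pair of M6 peaks 8.09 and 8.78 kb before its start (chromosome 2, 165242746 to 165242945 and 165243369 to 165243665), with −log10 q of 4.50 and 10.0. Cdh11, the cadherin of mesenchyme and bone, had 1 peak inside the gene, 68.4 kb from its nearer end (chromosome 8, 102700265 to 102700696, 25 tags, −log10 q 11.4). Cdh20 had a pair near the middle of the gene (−log10 q 3.27 and 6.84) and Cdh9 1 peak (4.67). Cdh5, the VE-cadherin of endothelium, Cdh19, a cadherin of Schwann cell precursors, and Cdh6, Cdh7, Cdh8, Cdh10, Cdh12 and Cdh18 had none.

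The remaining cadherins split into long genes with many M6 peaks and short ones without. Cdh13 encodes T-cadherin, which is held to the membrane by a lipid anchor. It had the most M6 peaks of any member, 10 over 1185 kb, all inside the gene and at least 22.4 kb from its ends. They had 13 to 27 tags and −log10 q from 2.98 to 11.2, the strongest at chromosome 8, 118393956 to 118394593. Cdh23, the upper part of the tip link, had 6 M6 peaks. The strongest member peak of all lay inside Cdh23 (chromosome 10, 60310677 to 60311019, 36 tags, fold 6.19, −log10 q 15.5). It was 8.09 kb from the far end of Cdh23 and 386 kb past the RefSeq start. An end of the neighbouring Psap was about as near as that far end, at 8.23 kb. The next (60351330 to 60352217, −log10 q 9.89) lay in Vsir, a gene nested in Cdh23, and was the widest member peak at 888 bp. The other 4 ran from 4.27 to 6.85. Cdh16, Cdh17 and Cdh26 had no peak within 10 kb. Just beyond that limit, Cdh16 had an M6 peak 10.1 kb away, 19 bases from an end of Pdp2 (−log10 q 19.9), Pcdh12 one at 11.0 kb (6.94) and Cdh26 one at 14.6 kb (6.45). The nearest to it on the inside was the Cdh22 pair, whose nearer peak began 7.82 kb from the gene.

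**Figure D4:**
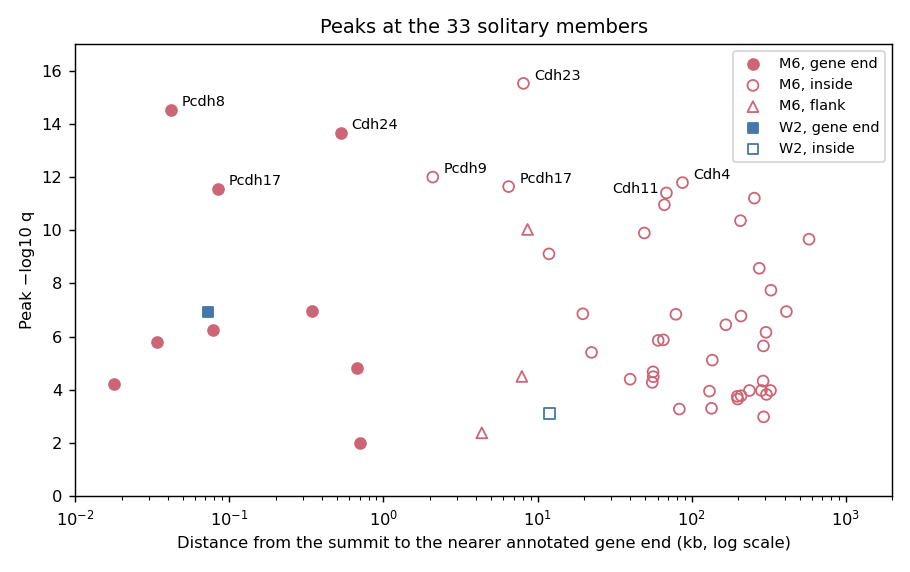
−log10 q (y axis) of every peak at the 33 solitary members by the distance from its summit to the nearer annotated gene end (x axis, kb, log scale). Red marks M6 and blue W2; filled points are gene-end peaks, open circles and squares lie inside the gene and triangles in the flanks. Of the 52 M6 peaks 9 are gene-end peaks, and most of the rest stand far inside genes.

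Most M6 peaks at solitary members lay away from the outermost annotated gene ends. Of 52, 9 were gene-end peaks, 3 lay in the flanks and 40 inside a gene, 32 of these over 50 kb from both ends. The 40 include the Pcdh9 peak 67 bases before a RefSeq start. No RefSeq start was available for Cdh4, Cdh11 and Cdh13, so how far their peaks lie from a start is not known. As a group the 58 M6 member peaks were of ordinary or slightly lower strength. Their median pileup was 19 tags, median fold 4.33 and median −log10 q 5.87, against 22 tags, 4.72 and 6.99 for M6 peaks at all protein-coding loci. Of the 58, 10 were among the 5735 strongest M6 peaks (17.2%, 8.59 to 29.4%), against 27.4% at all loci. The share was 21.5% at loci of at least 100 kb and 17.5% at those of at least 500 kb. Those 10 were at Cdh4, Cdh11, Cdh13, Cdh23, Cdh24, Pcdh8, Pcdh17 and Pcdh9, with 2 each at the last 2 genes. All 3 W2 member peaks overlapped an M6 peak (100%, 29.2 to 100%), against 80.5% of all W2 peaks. Of the 58 M6 peaks, 3 overlapped a W2 peak (5.17%, 1.08 to 14.4%). This compares with 20.2% of all M6 peaks, 12.6% of those at loci of at least 100 kb and 4.71% at loci of at least 500 kb.

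Long members ranged from 0 to 10 M6 peaks. Among the 6 members of at least 500 kb, Cdh13, Pcdh9 and Pcdh15 had 10, 6 and 4 M6 peaks, and Cdh12 (1150 kb), Cdh18 (929 kb) and Pcdh11x had 0. Of all 227 genes this long, 89.4% had an M6 locus peak, and the 3 members were among the 24 without one. Genes of 500 kb or more had a mean of 5.05 M6 peaks, and these 6 members a mean of 3.33. In the class of 300 to 500 kb the means were 3.46 for all genes and 3.50 for 4 members, Cdh4, Cdh23, Pcdh7 and Cdh8. At 100 to 300 kb they were 2.17 and 0.875. Of 18 solitary members of at least 100 kb, 11 had an M6 locus peak (61.1%, 35.7 to 82.7%), against 83.2% of all such genes, and 0 a W2 one, against 34.8%. Gene-end peaks were fewer still among them, 1 of 18 in M6 against 45.9%. The window stands at the outermost annotated ends, for these and for all genes. It misses RefSeq starts farther inside, as in Pcdh9, Pcdh15, Cdh12 and Cdh18. Of these, Pcdh9 alone had an M6 peak at such a start, which is not in the count. Of the 15 shorter members 7 had an M6 gene-end peak (46.7%, 21.3 to 73.4%), against 38.9% of genes under 100 kb.

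**Figure D5:**
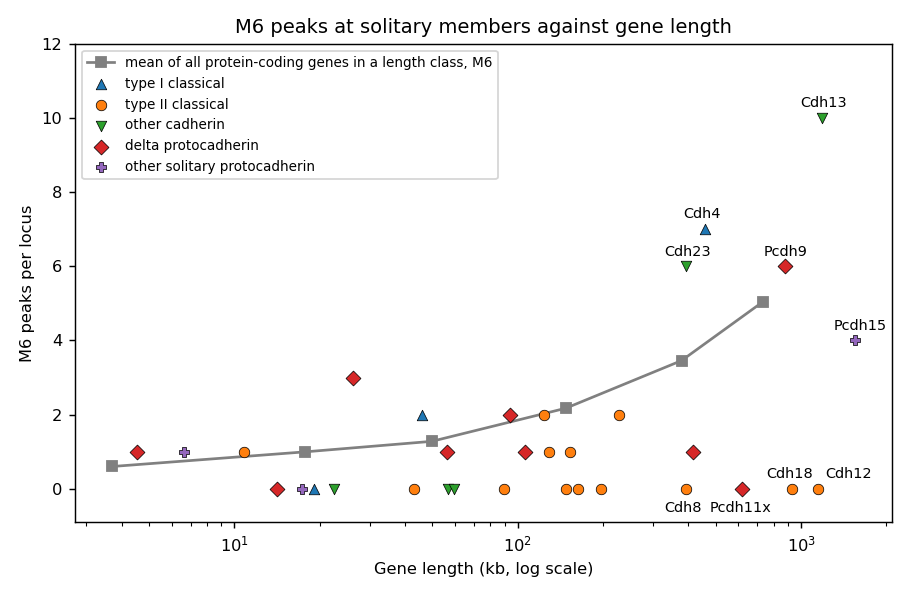
Number of M6 peaks per locus (y axis) against gene length (x axis, kb, log scale) for the 33 solitary members, with symbols by class. Grey squares are the mean of all protein-coding genes in 6 length classes, each at the median length of its class. Cdh4 and Cdh23 lie above the line, and Cdh8, Cdh12, Cdh18 and Pcdh11x lie at 0. Cdh13 and Pcdh9 lie to the right of the last square (734 kb) and higher than its mean of 5.05.

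Several members sit together in gene-poor stretches, and these differed from each other. On chromosome 15, Cdh6, Cdh9, Cdh10, Cdh12 and Cdh18 lie within 10469 kb that hold 7 protein-coding genes. That stretch had 0 W2 peaks and 10 M6 peaks, of which 1 was at a member, or 0.955 M6 peaks per Mb. On chromosome 14, Pcdh8, Pcdh17, Pcdh20 and Pcdh9 lie within 14146 kb that also hold 7 protein-coding genes. Here there were 3 W2 and 40 M6 peaks, or 2.83 per Mb, and 10 of the 40 were at the 4 protocadherins. Over all analysed chromosomes the M6 density was 8.29 per Mb. Cadherins also share a stretch of chromosome 8, from Cdh8 to Cdh16, with 4.09 M6 peaks per Mb, and one of chromosome 1, with Cdh20, Cdh7 and Cdh19, with 5.46. All 4 stretches were below the density over all chromosomes, and the chromosome 14 protocadherin stretch lay between the cadherin ones. The nearest M6 peak was 572 kb from Cdh12, 378 kb from Cdh18 and 590.4 kb from Cdh10.

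The genes of proteins that work with cadherins are given as lists, by members with a gene-end peak, beside the 18.4% (W2) and 39.7% (M6) of all genes. In the cadherin-catenin complex, which includes Cdh1 and Cdh2, the count was 5 of 13 in W2 and 11 of 13 in M6. The strongest in M6 were at Vcl, the actin linker vinculin (−log10 q 10.0 in W2 and 36.9 in M6), Jup, plakoglobin (15.3 and 23.4), and Ctnnal1 (6.27 and 22.2). In W2 the order was Jup, Vcl and Arvcf (8.26). Ctnna2 (18.5), Pkp4 (13.3), Ctnna1 (9.61), Cdh2 (5.56), Ctnnd2 (4.67) and Ctnna3 (2.85) had theirs in M6 alone. For desmosome genes, which encode the spot junctions of epithelia, the counts were 2 of 15 and 5 of 15, with Evpl, Ppl and Dsg2 the strongest in M6 (11.4, 9.19 and 8.57). For the atypical cadherins they were 2 of 18 and 7 of 18, led in M6 by Cdhr1, Celsr3 and Clstn3 (21.8, 17.6 and 15.0). Nectins, adhesion proteins that join cadherins at junctions, and their linker afadin had 2 of 5 and 4 of 5, led by Nectin2 (15.2 in W2 and 35.1 in M6). Regulators of clustered protocadherin promoters had 2 of 11 in W2, the cohesin genes Smc3 and Smc1a. In M6 they had 5 of 11, with Smchd1 (9.23), Ctcf (2.80) and Stag2 (2.77) added. For intracellular partners and proteases the counts were 5 of 11 and 9 of 11, led in M6 by the cadherin sheddase gene Adam10 (22.6), Fyn (22.4) and Wasf1 (20.3). Ptk2b, the strongest of them in W2 (12.6), had no gene-end peak in M6. Peaks near another gene were not separated in these lists.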

How the data were processed

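ATAC-seq peaks of 2 libraries were analysed. The submitters' processing notes name Bowtie2, SAMtools 1.4, deepTools, Trim Galore 0.5.0 and build mm10. The sources used here do not name the peak caller. The authors deposited 1 peak list per library holding 5765 (W2) and 22594 (M6) peaks, and the 30 and 24 of them on other sequences were left out. Each peak's fold (a ratio of summit to local background), −log10 p and −log10 q are the authors' deposited values. The deposited score, within 1 of 10 times the −log10 q, was not used. Summit pileup and background in tags were recovered by solving fold = (pileup + 1)/(background + 1) together with a Poisson upper tail for p. That form of the fold is an assumption, on which all printed tag counts and backgrounds depend. A whole pileup was found for 100% of peaks within 0.001, and the step was tested on simulated data. Read depth is unknown. The lowest background was 2.96 tags in W2 and 2.65 in M6.

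Genes and promoters came from RefSeq tables of GRCm38.p6, and an overlap of at least 1 bp counted (Python 3.11.15, pandas 2.3.3, SciPy 1.17.1). Named genes were those with a W2 locus peak, with a gene-end peak, among the 10 with the most M6 peaks or among the 10 with the strongest. Others were named after their values were seen. Members and lists were chosen with earlier results of these data known. Alternatives used equal numbers of peaks, a stricter threshold, other flanks and gene-end windows, and a larger overlap.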

Additional observations from a re-analysis of the deposited data

How the results depend on the processing

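No paired analysis was possible because each time point had 1 library, and leaving out a library was not possible for the same reason. When only 5735 peaks were kept per library, the strongest by −log10 q, M6 had 8 member loci with a peak, 3 members with a gene-end peak and 10 member peaks. Of the member peaks, 1 of the 3 in W2 and 1 of the 10 in M6 then overlapped the other library (33.3% and 10%). Ranked by fold, M6 had 8 loci, 1 member with a gene-end peak and 9 peaks. With that ranking 0 of the 3 W2 and 0 of the 9 M6 member peaks overlapped the other library (0%). The same shares over all peaks are not given here. These settings keep the whole W2 list. A −log10 q of at least 5 left 35 M6 member peaks at 17 loci. Flanks of 50 kb raised the W2 loci with a peak from 3 to 8 and the W2 peaks from 3 to 10, and the M6 peaks from 58 to 82. Under each of these settings M6 had at least as many member loci with a peak as W2. Gene-end members ranked by fold, however, were 2 in W2 and 1 in M6, the opposite order. Among the alternatives, shares of all genes are given above only for equal numbers by −log10 q. Gene ends of 500 bp and 5 kb gave 10 and 13 M6 members, and 2 W2 members each. The rest stayed within 1.5 times the main count or within its interval. The cause of these shifts was not tested. Counts of 3 W2 peaks and a detection limit of 12 tags bound what can be said of W2.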
